A study of Rattus norvegicus with 170 samples.

Results

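*Tp53bp1*, *Mdm2*, *Mdm4*, *Ccng1*, *Gadd45a*, *Sesn1*, *Sesn2*, *Tp53inp1* and *Ppm1d* belong to the p53 damage response, as adaptors, feedback inhibitors or target genes. They were taken by symbol, with transcripts of a symbol added together, and make up 9 of the 24113 genes of the deposited table. The cells came from islets of wild type, 8-week-old male Sprague Dawley rats, picked by hand and kept for 48 h at 5.5 mM glucose. The medium held 0.1% DMSO, the vehicle, or 3 µM GNF4877, an aminopyrazine inhibitor of the kinases DYRK1A and GSK3B. The islets were then dispersed with trypsin, and single cells were captured on microfluidic chips, 86 after DMSO and 84 after GNF4877. A compound that raises DNA synthesis can be asked whether the cells enter the cycle or answer to DNA damage, and the p53 genes bear on that question.

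The cells compared were Ins1-high, with at least 1000 reads per 1000000 mapped reads (RPM) of *Ins1*, an insulin gene. They were split by *Ccnb1*, the cyclin of entry into mitosis. With *Ccnb1* at 0 there were 77 DMSO cells and 40 GNF4877 cells, named DMSO Ccnb1-0 and GNF4877 Ccnb1-0. With at least 10 RPM there were 11 GNF4877 cells, named GNF4877 Ccnb1-high, and 1 DMSO cell. In 8 further GNF4877 cells *Ccnb1* lay above 0 and under 10 RPM. The labels do not say how many rats or cultures gave the cells, so each treatment was taken as 1 sample. By the methods each plate of cells filled a lane, so lane and compound cannot be told apart, and no test was made. The intervals given with shares of cells are exact 95% Clopper-Pearson intervals and cover counting error only. The authors checked each capture port by microscopy for a single cell, and no further screen for doublets was made here.

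Depth and cell make-up differed between these groups. The median number of mapped reads was 1240658 in DMSO Ccnb1-0, 1381746 in GNF4877 Ccnb1-0 and 1583250 in GNF4877 Ccnb1-high. The median number of genes with a read was 8932, 6913 and 7527 in the same order. Among the 75, 39 and 11 cells with at least 100000 listed reads, thinned to that number, these medians were 6599, 4837 and 5300. A hormone of another islet cell type (*Gcg*, *Sst* or *Ppy*) reached 1000 RPM in 25 of the 77 DMSO cells, 1 of the 40 GNF4877 Ccnb1-0 cells and 1 of the 11 GNF4877 Ccnb1-high cells. Mean *Gcg*, the glucagon gene, was 44630 RPM in DMSO Ccnb1-0 and 98.3 RPM in GNF4877 Ccnb1-0. Some results changed in cells thinned to equal depth or without cells holding a further hormone, and only part of these are given with the gene.

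The p53 protein is a transcription factor that is held low by the ubiquitin ligase encoded by *Mdm2* and by its relative encoded by *Mdm4*. When DNA is broken, checkpoint kinases release p53 from these inhibitors, and it then raises genes of arrest, repair, metabolism and death. Several of the raised genes, *Mdm2* and *Ppm1d* among them, switch the response off again.

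In the mean, the 9 genes did not move as a block under GNF4877. In Ccnb1-0 cells 1 gene was higher than in DMSO by at least 2-fold in the mean (*Mdm2*) and 2 were lower (*Sesn1* and *Sesn2*). Over the 13402 genes with a mean of at least 1 RPM in Ins1-high cells, which include all 9, 9.03% were higher and 20.8% lower by that rule. The median log2 ratio of the 9 genes was -0.64, against -0.15 over all genes. Taken as a difference of log2(RPM + 1) averaged over cells, here the mean log2(RPM + 1) scale, 0 were higher and 4 lower, against 1.26% and 26.4% of all genes, whose median was -0.51. On that scale every member but *Mdm2* had a negative difference, from -0.27 for *Tp53inp1* to -3.39 for *Sesn2*. In the mean, with any *Ins1* value above 0 the higher genes were 2, and with a pseudocount of 10 RPM or cells holding a further hormone left out the lower gene was 1. All 170 cells held some *Ins1*, so the first of these settings drops the limit of 1000 RPM. It takes in the cells under that limit, most of which held a further hormone. By the share of cells with at least 10 RPM, 3 of the 9 were lower with intervals apart (*Tp53bp1*, *Mdm4* and *Sesn2*) and 0 were higher. Over all genes, 13.5% were lower and 0.395% higher in this way. A gene found in few DMSO cells cannot be lower with intervals apart, and these shares were not matched to the level of the 9.

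Within GNF4877, 5 of the 9 genes were past 2-fold in the mean between the Ccnb1-high and the Ccnb1-0 cells. *Mdm2*, *Ccng1* and *Sesn2* were lower by at least 2-fold in the mean, and *Gadd45a* and *Sesn1* were higher. Over all genes, 23.4% were lower and 16% higher, so that the counts over the 9 were near the background. The call of *Sesn1* rested on cell 31 alone. The median log2 ratio was 0.10 for the 9 genes and -0.09 for all genes, and the former ran from -1.24 to 0.37 with each cell left out in turn. There were 1 higher and 2 lower on the mean log2(RPM + 1) scale, against 13.8% and 5.99% of all genes. The count of higher genes was also 1 with a pseudocount of 10 RPM or with cells holding a further hormone left out, and the count of lower genes was 1 when any *Ccnb1* value above 0 counted. For 0 of the 9 were the intervals of the share with at least 10 RPM apart, against 1.19% of all genes higher and 0.0522% lower.

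Set against DMSO Ccnb1-0, the GNF4877 Ccnb1-high cells had 3 of the 9 genes lower (*Mdm2*, *Ccng1* and *Sesn2*) and 0 higher, where 32.1% of all genes were lower and 14.1% higher. The median log2 ratio was -0.58, against -0.33 over all genes. With cells holding a further hormone left out 3 of the 9 were higher, with *Ins1* of at least 10000 RPM 2 were, and with *Ccnb1* of at least 100 RPM or after thinning 1 was. There were 5 lower and 0 higher on the mean log2(RPM + 1) scale, against 25.6% and 6.82% of all genes, and the median was -1.45, with all genes at -0.42. These 3 comparisons share cells: each group stands in 2 of them, so their values are not independent of each other. The median cell had 6 of the 9 genes at 10 RPM or more in DMSO Ccnb1-0, 3.5 in GNF4877 Ccnb1-0 and 4 in GNF4877 Ccnb1-high.

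**Figure D1:**
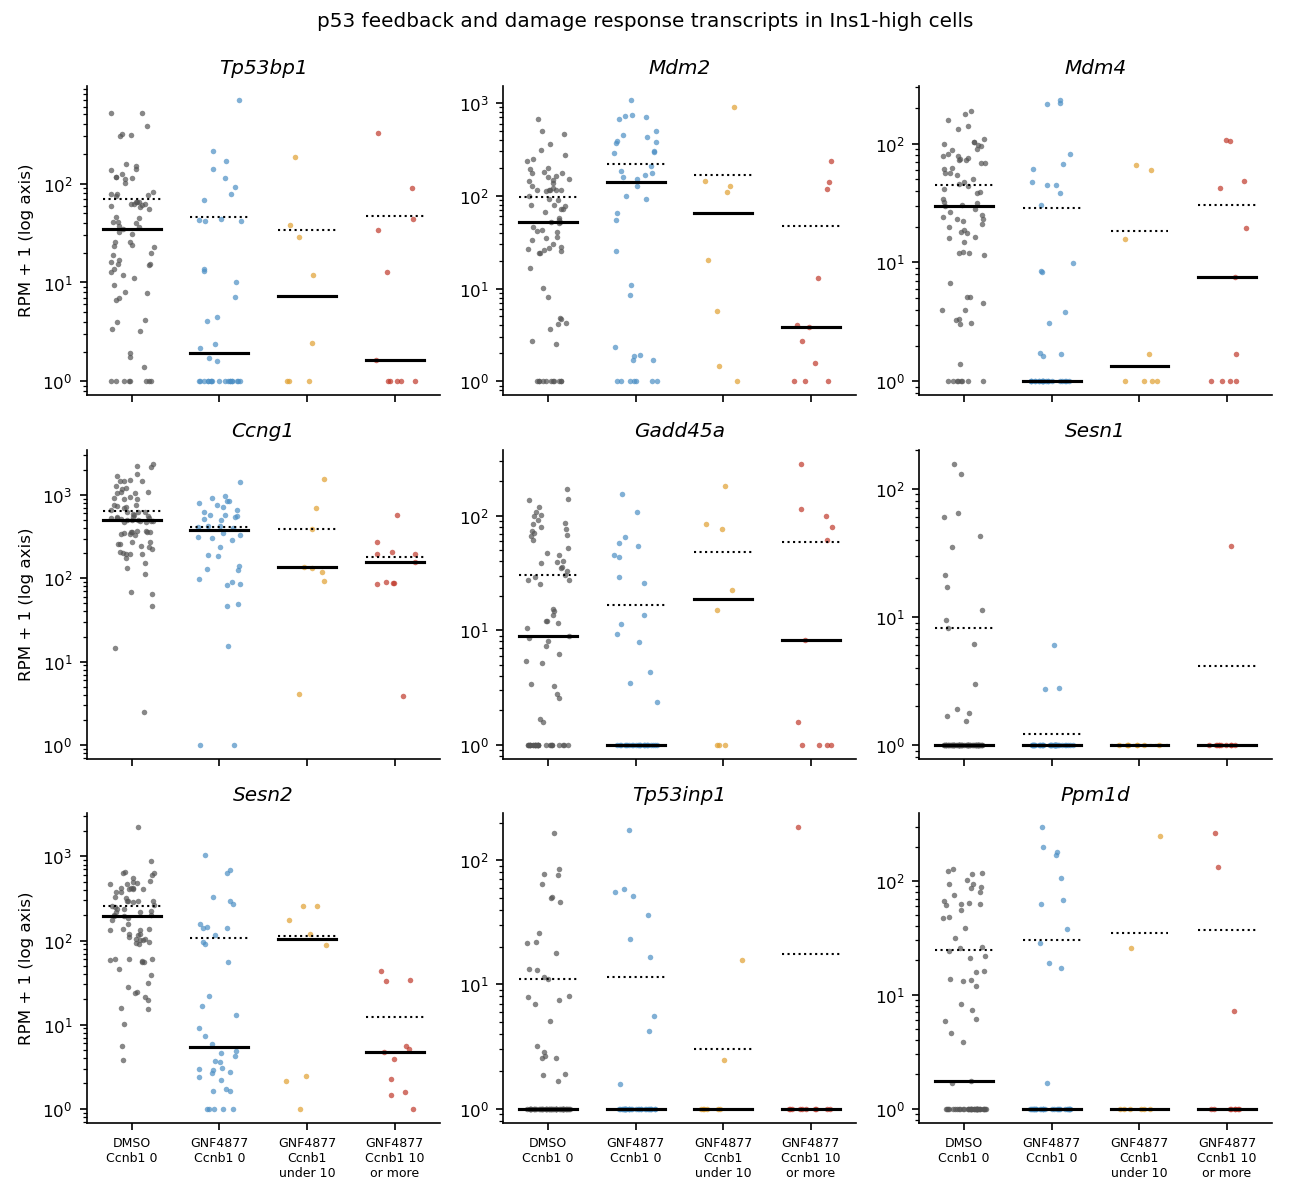
Level of each of the 9 genes in single Ins1-high cells (RPM plus 1, log axis) in DMSO Ccnb1-0, GNF4877 Ccnb1-0, GNF4877 Ccnb1 under 10 RPM and GNF4877 Ccnb1-high, with a point per cell, a solid line at the median and a dotted line at the mean. *Mdm2* has its highest median, 138 RPM, in GNF4877 Ccnb1-0, and *Sesn2* reaches no more than 42.4 RPM in GNF4877 Ccnb1-high.

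*Tp53bp1* encodes an adaptor that binds chromatin at double-strand breaks and favours repair by end joining. Fewer cells held it after GNF4877, while the highest single cell was a treated one. In DMSO Ccnb1-0 cells it ran from 0 to 521 RPM with a median of 33.9 RPM. In GNF4877 Ccnb1-0 cells it ran from 0 to 699 RPM with a median of 0.945 RPM. In GNF4877 Ccnb1-high cells it ran from 0 to 324 RPM with a median of 0.632 RPM. The ranges overlapped throughout, and the low medians of both GNF4877 groups came with a few cells at high values.

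At least 10 RPM of *Tp53bp1* was found in 57 of 77 DMSO Ccnb1-0 cells (74%, interval 62.8 to 83.4) and 14 of 40 GNF4877 Ccnb1-0 cells (35%, interval 20.6 to 51.7). After thinning, over the same 75 and 39 cells here and for the genes that follow, cells with a read made up 74.7% (63.3 to 84.0) and 41% (25.6 to 57.9), so the intervals stayed apart. In GNF4877 Ccnb1-high cells 5 of 11 reached 10 RPM, and the interval of that share overlapped both others. The mean was 68.7 RPM in DMSO Ccnb1-0, 44.6 RPM in GNF4877 Ccnb1-0 and 45.6 RPM in GNF4877 Ccnb1-high. The log2 ratio was -0.61 for GNF4877 over DMSO in Ccnb1-0 cells and 0.03 for Ccnb1-high over Ccnb1-0 within GNF4877. Single cells carried much of these means: without GNF4877 cell 12 the first ratio was -1.27 and the other 0.69, and without cell 19 the ratio within GNF4877 was -1.29. Ccnb1-high over DMSO Ccnb1-0 the ratio was -0.58, and -1.90 without cell 19. On the scale of mean log2(RPM + 1) per cell, Ccnb1-high over DMSO Ccnb1-0 was -1.91 and the difference between treatments was -2.09, where the median of all genes shifted to -0.51. Both transcripts listed under the symbol had their highest mean in DMSO Ccnb1-0 and close means in the GNF4877 groups, 37.7, 24.1 and 23.3 RPM for one, and 31, 20.53 and 22.3 RPM for the other.

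*Mdm2* encodes the ubiquitin ligase that marks p53 for destruction and is itself a p53 target. It was the 1 gene of the 9 that was at least 2-fold higher under GNF4877 in Ccnb1-0 cells, and it was low in most Ccnb1-high cells. In DMSO Ccnb1-0 it ran from 0 to 664 RPM with a median of 51.5 RPM and a mean of 95 RPM. In GNF4877 Ccnb1-0 it ran from 0 to 1074 RPM with a median of 138 RPM and a mean of 221 RPM. The log2 ratio between them was 1.21, and it stayed between 1.06 and 1.32 when any 1 cell was left out.

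The gain in *Mdm2* lay in cells at high values and not in the share of cells that held it. At least 10 RPM was found in 57 of 77 DMSO Ccnb1-0 cells (74%) and 26 of 40 GNF4877 Ccnb1-0 cells (65%, interval 48.3 to 79.4). A level of 100 RPM was reached in 27 of 77 (35.1%, interval 24.5 to 46.8) and 21 of 40 (52.5%, interval 36.1 to 68.5). A level of 300 RPM was reached in 5 of 77 (6.49%, interval 2.14 to 14.5) and 12 of 40 (30%, interval 16.6 to 46.5), with intervals apart. This threshold was chosen after the values were seen. On the scale of mean log2(RPM + 1), which gives less weight to the highest cells, the difference was 0.39 and no longer past 2-fold, with all genes at -0.51.

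In the 11 GNF4877 Ccnb1-high cells *Mdm2* ran from 0 to 235 RPM with a median of 2.86 RPM and a mean of 46.6 RPM. Cells 31, 16 and 30 held 235, 141 and 116 RPM. Cell 40 held 12 RPM, and the other 7 held 3.02 RPM or less, with cells 19, 25 and 63 at 0. None of the 11 reached 300 RPM, which allows a share of up to 28.5%. The log2 ratio to GNF4877 Ccnb1-0 was -2.22, and it was past 2-fold under each of 12 alternative settings, from -2.98 to -1.18. Without cell 31 it was -2.94. At 10 RPM the share was 4 of 11 (36.4%, interval 10.9 to 69.2), which overlaps that of the Ccnb1-0 cells. Between the groups stood the 8 cells with *Ccnb1* under 10 RPM, with a median of 64.5 RPM and a highest value of 915 RPM in cell 32.

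Against DMSO Ccnb1-0 the log2 ratio of *Mdm2* in the Ccnb1-high cells was -1.01, at the edge of the 2-fold line. It fell short of that line when any of 23 cells was left out, with values up to -0.88, and it was -1.74 without cell 31. With all GNF4877 cells above 0 of *Ccnb1* in place of those at 10 RPM or more it was 0.02. On the mean log2(RPM + 1) scale it was -2.16, and with cells holding a further hormone left out -1.83. With *Ccnb1* of at least 100 RPM it was -0.74, with any *Ins1* value above 0 it was -0.88, and with a pseudocount of 10 RPM it was -0.89. The single DMSO cell with *Ccnb1* of at least 10 RPM, cell 46, held 265 RPM of *Mdm2*, more than each of the 11 treated cells.

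*Mdm4* encodes the relative of *Mdm2* that binds p53 and blocks its activity. It was found in far fewer GNF4877 than DMSO cells. DMSO Ccnb1-0 cells ran from 0 to 188 RPM with a median of 29 RPM and a mean of 43.5 RPM. GNF4877 Ccnb1-0 cells ran from 0 to 231 RPM with a median of 0 and a mean of 27.5 RPM. GNF4877 Ccnb1-high cells ran from 0 to 106 RPM with a median of 6.52 RPM and a mean of 29.6 RPM. The top values overlapped, and the difference lay in the cells at or near 0.

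*Mdm4* reached 10 RPM in 58 of 77 DMSO Ccnb1-0 cells (75.3%, interval 64.2 to 84.4) and 11 of 40 GNF4877 Ccnb1-0 cells (27.5%, interval 14.6 to 43.9). At equal depth, cells with a read made up 78.7% (67.7 to 87.3) and 30.8% (17.0 to 47.6). The log2 ratio of the means was -0.64 between treatments, within 2-fold, and the difference of mean log2(RPM + 1) was -2.30. Within GNF4877 the log2 ratio of Ccnb1-high over Ccnb1-0 was 0.10, with 5 of 11 cells at 10 RPM or more, and over DMSO Ccnb1-0 it was -0.54. With *Ccnb1* of at least 100 RPM these values were -0.51 and -1.15, and on the mean log2(RPM + 1) scale 0.85 and -1.45.

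*Ppm1d* encodes the phosphatase that switches off the checkpoint kinases and p53. It had a read in 40 of 77 DMSO Ccnb1-0 cells and was sparse in the GNF4877 groups, and the direction of its ratios depended on the setting. The median was 0.752 RPM in DMSO Ccnb1-0 and 0 in both GNF4877 Ccnb1-0 and GNF4877 Ccnb1-high, and the lowest value was 0 in each. The highest cells held 127 RPM in DMSO Ccnb1-0, 294 RPM in GNF4877 Ccnb1-0 and 263 RPM in GNF4877 Ccnb1-high. At least 10 RPM was found in 32 of 77, 11 of 40 and 2 of 11 cells, with overlapping intervals. The means were 23.9, 29.2 and 36.3 RPM, and the log2 ratio was 0.28 between treatments and 0.31 within GNF4877. Ccnb1-high over DMSO Ccnb1-0 it was 0.58. Without cell 96 the ratio within GNF4877 was -1.04 and that over DMSO -0.76. On the mean log2(RPM + 1) scale the values between treatments and for Ccnb1-high over DMSO were -0.78 and -0.87, and with cells holding a further hormone left out they were 0.76 and 1.38. Among DMSO Ins1-high cells, at least 10 RPM of *Ppm1d* was found in 64% (42.5 to 82) of the 25 with a further hormone and 32.1% (19.9 to 46.3) of the other 53, with means of 43 and 14.7 RPM.

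*Ccng1* encodes cyclin G1, a p53 target that recruits a phosphatase to the *Mdm2* protein. It was found in nearly every cell of every group and was lowest in the Ccnb1-high cells. DMSO Ccnb1-0 cells ran from 1.51 to 2371 RPM with a median of 502 RPM and a mean of 647 RPM. GNF4877 Ccnb1-0 cells ran from 0 to 1440 RPM with a median of 376 RPM and a mean of 414 RPM. GNF4877 Ccnb1-high cells ran from 2.86 to 570 RPM with a median of 158 RPM and a mean of 177 RPM. The Ccnb1-high cells lay within the range of the others and missed its upper part.

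*Ccng1* reached 10 RPM in 76 of 77, 38 of 40 and 10 of 11 cells, and 100 RPM in 72, 31 and 6. The log2 ratio of Ccnb1-high over Ccnb1-0 within GNF4877 was -1.22, between -1.58 and -1.09 with any 1 cell left out. It was -0.63 when any *Ccnb1* value above 0 counted and -0.99 on the mean log2(RPM + 1) scale, which end the call. Between treatments the log2 ratio in Ccnb1-0 cells was -0.64, and Ccnb1-high over DMSO Ccnb1-0 it was -1.86, past 2-fold under all 12 alternatives. Hormone content went with *Ccng1* in DMSO Ins1-high cells: the 25 cells with a further hormone had a mean of 358 RPM and a median of 341 RPM, and the other 53 a mean of 778 RPM and a median of 589 RPM.

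*Gadd45a* encodes a small stress protein that binds PCNA and the mitotic kinase complex and is induced by p53 after damage. Its mean was lowest in GNF4877 Ccnb1-0 and highest in GNF4877 Ccnb1-high. DMSO Ccnb1-0 cells ran from 0 to 171 RPM with a median of 8.02 RPM and a mean of 29.3 RPM. GNF4877 Ccnb1-0 cells ran from 0 to 155 RPM with a median of 0 and a mean of 15.6 RPM. GNF4877 Ccnb1-high cells ran from 0 to 284 RPM with a median of 7.22 RPM and a mean of 58.5 RPM. The medians of DMSO Ccnb1-0 and GNF4877 Ccnb1-high were thus close, and the higher mean came from a few cells.

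The log2 ratio of *Gadd45a* for Ccnb1-high over Ccnb1-0 within GNF4877 was 1.85 and past 2-fold under all 12 alternatives, from 1.42 to 1.95. It was 1.16 without cell 16, which held the 284 RPM. At least 10 RPM was found in 37 of 77 DMSO Ccnb1-0 cells (48.1%, interval 36.5 to 59.7), 11 of 40 GNF4877 Ccnb1-0 cells (27.5%) and 5 of 11 GNF4877 Ccnb1-high cells (45.5%, interval 16.7 to 76.6), so no interval was apart. The 8 cells with *Ccnb1* under 10 RPM had a median of 17.7 RPM and a mean of 47.3 RPM. Between treatments the log2 ratio in Ccnb1-0 cells was -0.87. It was past 2-fold without cell 24 (-1.22) or cell 92 (-1.09) of the GNF4877 sample, and on the mean log2(RPM + 1) scale (-1.29). Ccnb1-high over DMSO Ccnb1-0 it was 0.98 and was past 2-fold when any of 20 cells was left out, with values up to 1.11, while without cell 16 it was 0.29. Over the 12 alternatives this ratio ran from 0.35 to 1.22 and was past 2-fold in 4 of them.

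*Sesn2* encodes sestrin 2, a stress-induced inhibitor of mTORC1 signalling that is a target of both p53 and ATF4. It was lower by at least 2-fold in the mean in each of the 3 comparisons. DMSO Ccnb1-0 cells ran from 2.79 to 2213 RPM with a median of 194 RPM and a mean of 253 RPM. GNF4877 Ccnb1-0 cells ran from 0 to 1050 RPM with a median of 4.36 RPM and a mean of 107 RPM. GNF4877 Ccnb1-high cells ran from 0 to 42.4 RPM with a median of 3.73 RPM and a mean of 11.4 RPM. The highest Ccnb1-high cell thus lay under the median of the DMSO cells.

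*Sesn2* reached 10 RPM in 74 of 77 DMSO Ccnb1-0 cells (96.1%, interval 89 to 99.2), 17 of 40 GNF4877 Ccnb1-0 cells (42.5%, interval 27 to 59.1) and 3 of 11 GNF4877 Ccnb1-high cells (27.3%, interval 6.02 to 61). At this level both GNF4877 groups were apart from DMSO and overlapped each other. Counting any read, *Sesn2* was found in 77 of 77 (100%, from 95.3), 35 of 40 (87.5%, interval 73.2 to 95.8) and 10 of 11 cells, with overlapping intervals. At equal depth, cells with a read made up 98.7% (92.8 to 100) of DMSO Ccnb1-0 and 51.3% (34.8 to 67.6) of GNF4877 Ccnb1-0. In GNF4877 Ccnb1-high they made up 27.3% (6.02 to 61) at equal depth, apart from DMSO Ccnb1-0. At least 100 RPM was found in 53 of 77, 11 of 40 and 0 of 11 cells. The log2 ratio between treatments in Ccnb1-0 cells was -1.23, past 2-fold under all 12 alternatives, from -3.39 to -1.12. Some of the 12 could not change it: the *Ccnb1* thresholds leave the Ccnb1-0 cells as they are, and the highest transcript matters for *Tp53bp1* alone. Within GNF4877 the ratio of Ccnb1-high over Ccnb1-0 was -3.13, with -2.46 for a pseudocount of 10 RPM, -1.33 on the mean log2(RPM + 1) scale and -0.99 when any *Ccnb1* value above 0 counted. The 8 cells with *Ccnb1* under 10 RPM, which the last setting adds, had a median of 104 RPM. Ccnb1-high over DMSO Ccnb1-0 the ratio was -4.36, and -2.22 when any *Ccnb1* value above 0 counted. The DMSO cell 46 with *Ccnb1* held 4.41 RPM.

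*Sesn1* encodes sestrin 1, a p53 target of the same family. It was sparse and was seen mainly in DMSO cells that held a further hormone. The median was 0 in DMSO Ccnb1-0, GNF4877 Ccnb1-0 and GNF4877 Ccnb1-high. A read was found in 17 of 77 DMSO Ccnb1-0 cells (22.1%, interval 13.4 to 33), with a highest value of 155 RPM. In GNF4877 Ccnb1-0 it was found in 3 of 40 cells, with a highest value of 5.07 RPM, and none reached 10 RPM, which allows a share of up to 8.81%. In GNF4877 Ccnb1-high it was found in cell 31 alone, at 34.4 RPM. That cell also held 37011 RPM of *Gcg*.

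The means of *Sesn1* were 7.19, 0.214 and 3.12 RPM in DMSO Ccnb1-0, GNF4877 Ccnb1-0 and GNF4877 Ccnb1-high. The log2 ratio was -2.75 between treatments in Ccnb1-0 cells and 1.76 for Ccnb1-high over Ccnb1-0 within GNF4877. Both rested on cells with a further hormone. With those cells left out, the ratio between treatments was -0.43 and that within GNF4877 was -0.23, and without cell 31 the latter was -0.28. The ratio of Ccnb1-high over DMSO Ccnb1-0, -0.99, passed 2-fold when any of 66 cells was left out and was -3.03 without cell 31. With a pseudocount of 10 RPM the first 2 ratios were -0.75 and 0.36, and on the mean log2(RPM + 1) scale they were -0.67 and 0.33, all within 2-fold. Among DMSO Ins1-high cells a read of *Sesn1* was found in 11 of 25 with a further hormone (44%, interval 24.4 to 65.1) and in 6 of the other 53 (11.3%, interval 4.27 to 23), with means of 20.9 and 0.567 RPM.

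*Tp53inp1* encodes a p53-induced nuclear protein of stress and autophagy. Its values were few, and no group stood apart. The median was 0 in DMSO Ccnb1-0, GNF4877 Ccnb1-0 and GNF4877 Ccnb1-high. A read was found in 29 of 77, 10 of 40 and 1 of 11 cells, and the highest values were 164, 173 and 182 RPM. The means were 10.1, 10.4 and 16.6 RPM, with a log2 ratio of 0.05 between treatments and 0.62 within GNF4877. The Ccnb1-high mean was cell 19 alone, and without it the ratio within GNF4877 was -3.52. The ratio over DMSO Ccnb1-0 was 0.67, and -3.47 without that cell. Over the 12 alternatives this ratio ran from -0.68 to 1.02 and was past 2-fold in 2 of them. Without GNF4877 cell 61 the ratio within GNF4877 was 1.28 and the one between treatments -0.61. When any *Ins1* value above 0 counted, the ratio between treatments was 1.42 and that within GNF4877 -0.95. That setting takes in every cell, among them GNF4877 cells 71 and 94, with 607 and 449 RPM of *Tp53inp1*. Both were under 1000 RPM of *Ins1* and over 1000 RPM of *Gcg*.

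**Figure D2:**
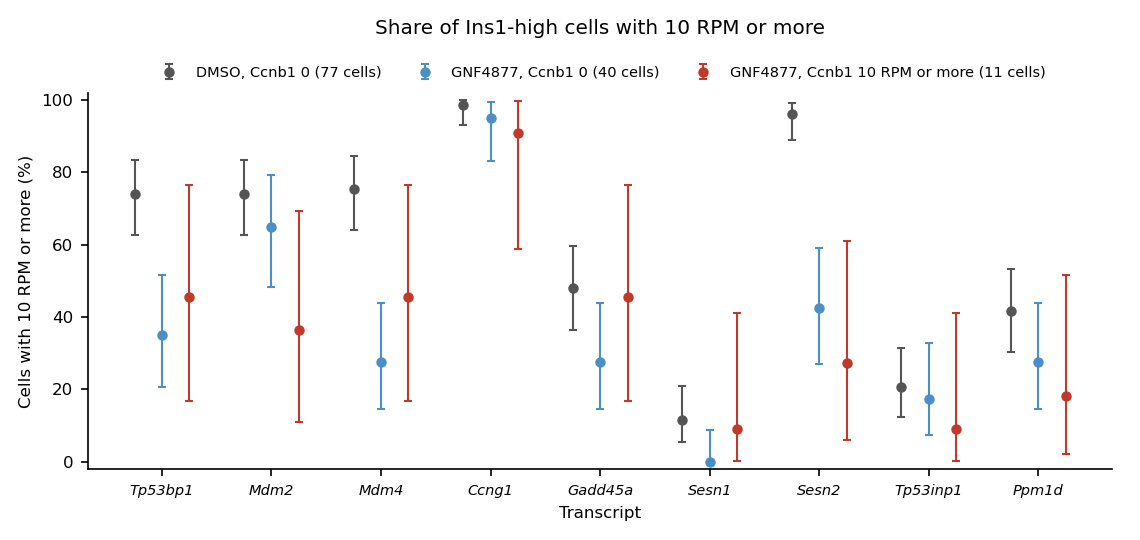
Share of cells with at least 10 RPM of each gene (percent) in DMSO Ccnb1-0 (77 cells), GNF4877 Ccnb1-0 (40 cells) and GNF4877 Ccnb1-high (11 cells), with bars for exact 95% intervals. The intervals of DMSO Ccnb1-0 and GNF4877 Ccnb1-0 are apart for *Tp53bp1*, *Mdm4* and *Sesn2*.

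**Figure D3:**
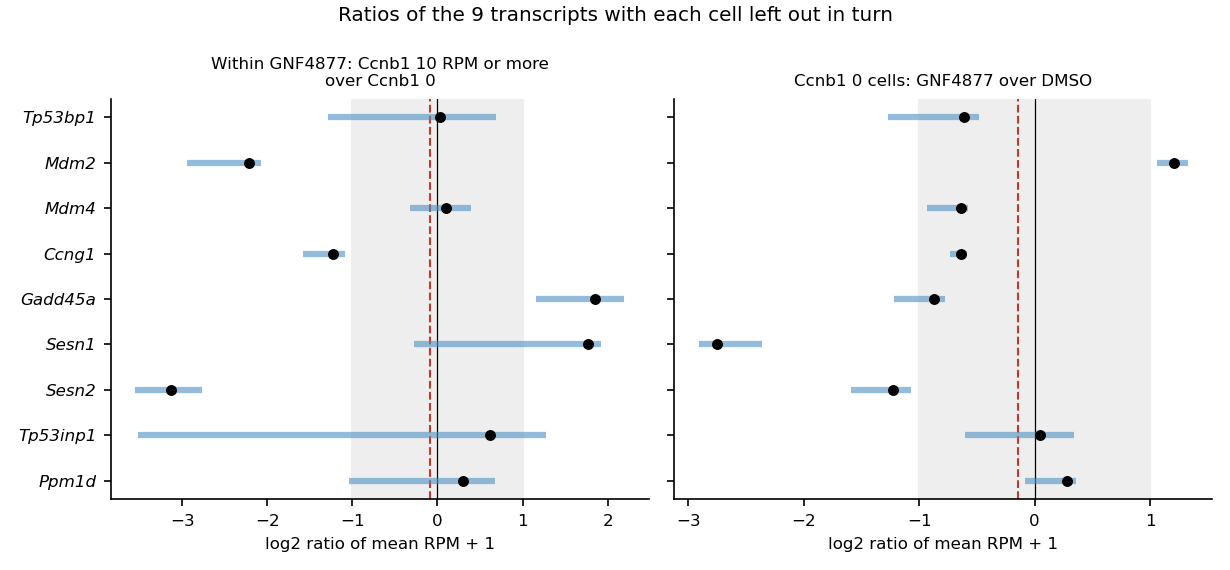
Log2 ratio of mean RPM (plus 1) for each gene, for Ccnb1-high over Ccnb1-0 within GNF4877 and for GNF4877 over DMSO in Ccnb1-0 cells, with a point per gene and a blue bar for the range with each cell left out in turn. The grey band marks less than 2-fold and the red dashed line the median of all genes, and the bars of *Tp53bp1*, *Mdm4*, *Sesn1*, *Tp53inp1* and *Ppm1d* within GNF4877 cross 0.

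Levels of the 9 genes were hardly related to each other from cell to cell. Over the 36 pairs, Spearman's rho ran from -0.23 to 0.32 in the 78 DMSO Ins1-high cells, with a median of 0.07, and from -0.25 to 0.32 in the 59 GNF4877 Ins1-high cells. Cells of a treatment share their preparation and lane and differ in depth, and in values this sparse weak correlations carry no finding. By the lower of the values in the 2 treatments, over 6131 genes with a read in at least 50% of cells, *Ccng1* was most like *Cat* (rho 0.53 in DMSO and 0.46 in GNF4877), *Agpat3* (0.48 and 0.40) and *Mgmt* (0.43 and 0.46). *Mdm2* was most like *Exd1* (0.34 and 0.36), *LOC100911690* (0.34 and 0.36) and *Entpd1* (0.39 and 0.33). *Mdm4* was most like *LOC689202* (0.37 and 0.36), *Copa* (0.34 and 0.34) and *Manbal* (0.32 and 0.39). *Sesn2* was most like *LOC363301* (0.41 and 0.34), *LOC498453* (0.34 and 0.41) and *LOC363324* (0.34 and 0.37). *Tp53bp1* was most like *Dlst* (0.30 and 0.31), *Birc6* (0.33 and 0.29) and *Crem* (0.28 and 0.30). Picked as the highest of 6131 genes, these values are descriptions, and no chance value was computed for them.

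The promoters were read because p53 acts on most of these genes by binding DNA. RefSeq promoter windows on build GRCr8, from 250 bases before to 50 after the gene start, were matched for 8 of the 9, all but *Tp53inp1*. The p53 decamer, the 10-base element of which p53 binds a pair, was searched on both strands by its consensus. It was present in 3 of the 8 windows and in 7.98% of all 33469 windows. In *Ccng1* (chr10:25685084-25685126, minus strand) a decamer stood next to another with 1 mismatch and no base between them. In *Gadd45a* (chr4:97486823-97486883, minus strand) a decamer had another with 1 mismatch at a distance of 11 bases. In *Sesn1* (chr20:46948532-46948571, plus strand) a decamer stood alone. Pairs with at most 1 mismatch and up to 13 bases between them were found in 335 windows of all genes. Capitals mark the decamers in the stretches printed here. A match is a description, and in *Tp53bp1*, *Mdm2*, *Mdm4*, *Sesn2* and *Ppm1d* these letters were not in the window.
Ccng1: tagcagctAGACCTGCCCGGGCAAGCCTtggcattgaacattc
Gadd45a: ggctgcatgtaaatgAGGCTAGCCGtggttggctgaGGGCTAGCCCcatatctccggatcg
Sesn1: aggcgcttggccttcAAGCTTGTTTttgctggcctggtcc

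Counts for further lists stand beside the shares over all genes. In the mean these were 9.03% higher and 20.8% lower between treatments, and 16% higher and 23.4% lower within GNF4877. On the mean log2(RPM + 1) scale they were 1.26% and 26.4% between treatments, and 13.8% and 5.99% within GNF4877. By the share with at least 10 RPM they were 0.395% and 13.5% between treatments.

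Of 5 relatives of the 9 genes, 2 were higher and 1 lower by at least 2-fold under GNF4877 in Ccnb1-0 cells. *Gadd45b* and *Gadd45g*, of the *Gadd45a* family, had log2 ratios of 3.76 and 1.03, and *Sesn3*, a sestrin, -1.26, with *Tp53inp2* at 0.10. Within GNF4877, 0 were higher and 3 lower in Ccnb1-high cells, with *Ccng2* at -3.63 and *Sesn3* at -2.79, and *Tp53inp2* at 0.95 and *Gadd45g* at 0.10. On the mean log2(RPM + 1) scale 1 of the 5 was higher and 1 lower between treatments, with *Gadd45g* at 1.51, *Sesn3* at -1.30 and *Gadd45b* at 0.78, and 1 was higher and 0 lower within GNF4877, with *Ccng2* at -0.65, *Sesn3* at -0.56 and *Tp53inp2* at 1.03. By the share with at least 10 RPM, 0 of the 5 were higher and 0 lower between treatments with intervals apart.

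Of 25 further p53 targets that passed the filter, 3 were higher and 8 lower under GNF4877 in Ccnb1-0 cells, against 9.03% and 20.8% of all genes. The highest were the death receptor gene *Tnfrsf10b* (2.55) and *Bid* (1.73). The higher values rested on few cells: *Tnfrsf10b* had a read in 1 of 40 GNF4877 cells, cell 61, and in 0 of 77 DMSO cells, which allows a share of up to 4.68%, and *Bid* in 4 and 8 cells. On the mean log2(RPM + 1) scale *Tnfrsf10b* and *Bid* stood at 0.19 and the other higher gene, *Fas*, at 0.24, and by the share with at least 10 RPM 0 of the 25 were higher and 5 lower with intervals apart, against 0.395% and 13.5%. The lowest were *Plk2* (-4.84) and *Cdkn1a* (-1.96). *Cdkn1a* encodes the kinase inhibitor p21, the main effector of arrest by p53. It had a read in 27 of 77 DMSO Ccnb1-0, 4 of 40 GNF4877 Ccnb1-0 and 2 of 11 GNF4877 Ccnb1-high cells, with means of 5.88, 0.772 and 0.101 RPM. *Bax*, a gene of cell death, had means of 38.3, 27.7 and 25.5 RPM. Within GNF4877, 4 of the 25 were higher and 4 lower, against 16% and 23.4% of all genes, with *Ddb2* (3.42) and *Aen* (1.56) at the top and *Fas* (-3.51) and *Tnfrsf10b* (-2.55) at the bottom, and *Cdkn1a* at -0.69 and *Bax* at -0.12. Within GNF4877, 1 of the 25 was higher and 1 lower on the mean log2(RPM + 1) scale, with *Ddb2* at 0.52, *Aen* at 0.63, *Fas* at -0.72 and *Tnfrsf10b* at -0.19, and 0 were higher and 6 lower between treatments, with *Plk2* at -0.70 and *Cdkn1a* at -0.89.

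Of 34 genes of damage sensing and repair, many of which also serve DNA replication, 10 were higher and 5 lower between treatments, against 9.03% and 20.8% of all genes, with *Chek1* (2.34) and *Fancd2* (2.06) highest, *Nhej1* (-2.23) and *Clspn* (-1.40) lowest, and *H2afx* at 0.89, *Brca1* at -0.15 and *Atm* at -0.79. Within GNF4877, 15 of 34 were higher and 7 lower in Ccnb1-high cells, against 16% and 23.4%, with *Chek2* (4.25) and *Bard1* (3.89) highest, *Usp28* (-2.99) and *Xrcc4* (-2.55) lowest, and *Brca1* at 3.63, *H2afx* at 1.20, *Atm* at 0.47 and *Chek1* at 0.44. Of the 34, 17 were higher and 2 lower within GNF4877 on the mean log2(RPM + 1) scale, against 13.8% and 5.99% of all genes, and 3 were higher and 6 lower between treatments, against 1.26% and 26.4%, with *Fancd2* at 0.09. By the share with at least 10 RPM, 0 of the 34 were higher and 2 lower between treatments, against 0.395% and 13.5%. All 15 genes of G2 and M phase were higher in Ccnb1-high cells, from *Top2a* and *Cdc20* (both 7.78) to *Aurkb* (3.78) and *Ccna2* (3.16). Their summed level was 3721 RPM in GNF4877 Ccnb1-high, 59.7 RPM in GNF4877 Ccnb1-0 and 17.9 RPM in DMSO Ccnb1-0. Members can thus pass the filter through the Ccnb1-high cells alone, and the count describes the split without testing it. Between treatments in Ccnb1-0 cells 8 of these 15 were higher and 2 lower, with *Ccnb2* (2.56) and *Aurkb* (2.21) highest and *Kif11* (-1.39) and *Cdc20* (-1.16) lowest. Only 1 of the 15 was higher and 0 lower between treatments on the mean log2(RPM + 1) scale, and 15 were higher within GNF4877. By the share with at least 10 RPM, 0 of the 15 were higher and 0 lower between treatments.

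*Sesn2* also belongs to the ATF4 stress pathway. Of the 12 genes listed for it, *Sesn2* included, 0 were higher and 4 lower between treatments, where 20.8% of all genes were lower, with *Psat1* (0.53) and *Ddit4* (0.21) highest and *Trib3* (-1.37) and *Sesn2* lowest. Within GNF4877, 2 were higher and 7 lower in Ccnb1-high cells, with *Phgdh* (3.03) and *Psat1* (1.26) highest and *Sesn2* and *Vldlr* (-2.85) lowest. Between treatments, 0 were higher and 8 lower on the mean log2(RPM + 1) scale, and 1 was higher and 5 lower within GNF4877. By the share with at least 10 RPM, 0 of the 12 were higher and 6 lower between treatments. Of 8 immediate early genes, which answer to dispersal of tissue, 0 were higher and 6 lower between treatments, with *Ier2* (-0.25) and *Dusp1* (-0.78) highest and *Egr1* (-1.85) and *Junb* (-1.69) lowest. Within GNF4877, 1 was higher and 0 lower, with *Egr1* (1.51) and *Ier2* (0.61) highest and *Jun* (-0.96) and *Fosb* (0.09) lowest. Of the 8, 0 were higher and 7 lower between treatments on the mean log2(RPM + 1) scale, and 4 were higher and 0 lower within GNF4877. By the share with at least 10 RPM, 0 of the 8 were higher and 3 lower between treatments.

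Set against DMSO Ccnb1-0, the GNF4877 Ccnb1-high cells had 3 of the 5 relatives higher and 2 lower and 4 of the 25 further targets higher and 8 lower. In the same comparison 18 of the 34 genes of sensing and repair were higher and 5 lower, 2 of the 12 ATF4 genes were higher and 8 lower, and 0 of the 8 immediate early genes were higher and 2 lower. Over all genes 14.1% were higher and 32.1% lower, so that the count of lower targets, 8 of 25, was near the background. On the mean log2(RPM + 1) scale 1 relative was higher and 1 lower, 0 targets were higher and 5 lower, 15 genes of sensing and repair were higher and 6 lower, 1 ATF4 gene was higher and 9 lower, and 0 immediate early genes were higher and 2 lower. Over all genes 6.82% were higher and 25.6% lower on that scale.

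Markers of islet and other cell types moved between the groups beside the 9 genes. Beyond leaving out cells with a further hormone, their part in the results was not tested. Over all genes, 9.03% were higher and 20.8% lower in the mean between treatments, and 1.26% and 26.4% on the mean log2(RPM + 1) scale. By the share with at least 10 RPM they were 0.395% and 13.5%. Between treatments in Ccnb1-0 cells, 1 of 8 beta cell markers was higher and 4 lower, with summed levels of 15633 RPM in GNF4877 and 24320 RPM in DMSO and *Ins2* the most abundant. All 5 alpha cell markers that passed the filter were lower, at 104 and 44712 RPM, with *Gcg* the most abundant and 2 of the 6 found at 0 in GNF4877. Both delta cell markers were lower, at 14.6 and 107 RPM, with *Sst* the most abundant, and both PP cell markers were lower, at 1042 and 2548 RPM, with *Ppy* the most abundant. Of 5 duct cell markers 1 was higher and 1 lower, at 265 and 210 RPM, with *Krt7* the most abundant. On the mean log2(RPM + 1) scale 0 markers of these lists were higher. Lower on it were 5 beta, 3 alpha, 1 delta, 0 PP and 0 duct cell markers. By the share with at least 10 RPM, 0 were higher with intervals apart. Lower by the share were 2 beta, 2 alpha, 1 delta, 0 PP and 0 duct cell markers.

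The endothelial marker *Cdh5* was lower, at 0 and 2.90 RPM for the list, with 6 of 6 at 0 in GNF4877. Of 7 mesenchymal markers 0 were higher and 6 lower, at 0.449 and 110 RPM, with *Col1a1* the most abundant. Both immune markers that passed the filter were higher, at 68.3 and 12.3 RPM, with *Cd74* the most abundant. On the mean log2(RPM + 1) scale 0 endothelial and 0 mesenchymal markers were past 2-fold, and 1 immune marker was higher. By the share with at least 10 RPM, 0 markers of these lists were higher or lower with intervals apart.

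Within GNF4877 16% of all genes were higher and 23.4% lower in the mean in Ccnb1-high cells. These cells had 2 of 8 beta cell markers higher and 1 lower, with summed levels of 34587 RPM against 15633 RPM in Ccnb1-0 cells. Of 5 alpha cell markers 2 were higher and 0 lower, at 3441 against 104 RPM, nearly all of it the *Gcg* of cell 31. The PP cell list stood at 7.51 against 1042 RPM with 1 of 2 lower, the delta cell list at 14 against 14.6 RPM with 1 higher and 1 lower, and the duct cell list at 205 against 265 RPM with 1 higher and 1 lower. The endothelial list stood at 4.95 against 0 RPM with 0 of 1 past 2-fold, the mesenchymal list at 0.514 against 0.449 RPM with 0 of 7 past 2-fold, and the immune list at 82.6 against 68.3 RPM with 1 of 2 lower. On the mean log2(RPM + 1) scale 5 beta cell markers were higher and 0 lower, and 1 delta and 1 duct cell marker were lower, against 13.8% of all genes higher and 5.99% lower. No marker of the alpha, PP, endothelial, mesenchymal and immune lists was past 2-fold on it. With all cells holding a further hormone left out, *Mdm2* stayed past 2-fold higher between treatments, and *Sesn2* stayed past 2-fold lower in each comparison.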

How the data were processed

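The authors captured single islet cells on Fluidigm C1 chips, made cDNA with the SMARTer kit and sequenced single 50 bp reads. By the submitters' processing notes, CASAVA 1.8.2, BWA 0.5.9 and SAMtools 0.1.19 were used. The deposited values are RPM, reads per 1000000 mapped reads and not corrected for transcript length, so levels of different genes were not compared. Transcripts in the table are from rat RefSeq, although the alignment is described as to the mouse transcriptome. The floor value of 0.01 was set to 0. Multiplied by mapped reads, 100% of values worth at most 20 reads lay within 0.1 of a whole read, so reads were counted, and cells were thinned to 100000 reads. Mapped reads ran from 241604 to 2499138 per cell.

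Ratios are log2 of mean RPM plus 1, called at 2-fold, over genes with a mean of at least 1 RPM in Ins1-high cells. The members and lists were chosen with earlier results of these data known. Named genes were the 9 members, the 2 highest and 2 lowest genes of each list that is not a cell type marker list, *Cdkn1a*, *Bax*, *Atm*, *Chek1*, *Brca1* and *H2afx*, and the 3 genes most like each member with a read in at least 50% of cells. Marker lists were named by their most abundant gene. Any other name was picked with its value in view. Of the listed genes 6 were not found, and some list results are not reported. Of 9 symbols, 9 were in the reference gene table, as were 7 of their 10 transcripts. Alternatives changed the *Ins1* and *Ccnb1* thresholds, the pseudocount, the scale, the depth, the transcript used, the cells with a further hormone and the filter, and left out each cell in turn. Those without cells of under 100000 listed reads, with RPM over listed reads, and with the other lists on the mean log2(RPM + 1) scale, were added after the data were seen. Figures were drawn in matplotlib 3.10.9, values were computed in Python 3.11.15 with scipy 1.17.1, pandas 2.3.3 and numpy 2.4.6, and the code was tested on simulated data.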

Additional observations from a re-analysis of the deposited data

How the results depend on the processing

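Of the ratios of the 9 genes over all alternatives, 319 moved by less than 1.5 times, 56 moved by more, and 3 that were past 2-fold changed sign. Those 3 were *Sesn1* in Ccnb1-high over Ccnb1-0 cells within GNF4877, at -0.23 with cells holding a further hormone left out and at -0.28 without cell 31 (-0.28 to 1.92 with each cell left out), and *Mdm2* in Ccnb1-high cells over DMSO Ccnb1-0, at 0.0224 when any *Ccnb1* value above 0 counted. Part of the 319 could not move. The highest transcript of a symbol can change *Tp53bp1* alone, and the *Ccnb1* thresholds do not alter the groups compared between treatments. Ratios within 2-fold changed sign as well. Over the 12 settings, those within GNF4877 ran from -0.25 to 0.31 for *Tp53bp1*, -0.51 to 0.85 for *Mdm4*, -0.95 to 1.03 for *Tp53inp1* and -0.09 to 0.62 for *Ppm1d*. Those between treatments ran from -0.27 to 1.42 for *Tp53inp1* and -0.78 to 0.76 for *Ppm1d*. Those for Ccnb1-high over DMSO Ccnb1-0 ran from -1.45 to 0.01 for *Mdm4*, -0.68 to 1.02 for *Tp53inp1* and -0.87 to 1.38 for *Ppm1d*. With each cell left out the ratios within GNF4877 ran from -1.29 to 0.69 for *Tp53bp1*, -0.32 to 0.39 for *Mdm4*, -3.52 to 1.28 for *Tp53inp1* and -1.04 to 0.67 for *Ppm1d*. Between treatments they ran from -0.61 to 0.34 for *Tp53inp1* and -0.09 to 0.36 for *Ppm1d*, and over DMSO from -3.47 to 0.96 for *Tp53inp1* and -0.76 to 0.72 for *Ppm1d*.

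For the counts and medians over the 9 genes 107 values were the same and 19 moved, and for the shares of cells 193 were the same and 23 moved, 13 of them where 10 RPM counted in place of any read.

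Within GNF4877 the count of higher genes, 2, was 1 with a pseudocount of 10 RPM, on the scale of mean log2(RPM + 1) and with cells holding a further hormone left out. The count of lower genes, 3, was 1 when any *Ccnb1* value above 0 counted. With each cell left out in turn the median log2 ratio ran from -1.24 to 0.37, the higher count from 1 to 3 and the lower count from 3 to 5. Between treatments the count of higher genes, 1, was 2 when any *Ins1* value above 0 counted, which takes in every cell, and 0 on the scale of mean log2(RPM + 1). The count of lower genes, 2, was 1 with a pseudocount of 10 RPM or with cells holding a further hormone left out, and 4 on the scale of mean log2(RPM + 1). With each cell left out the median ran from -0.75 to -0.59, the higher count stayed at 1 and the lower count ran from 2 to 3.

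For Ccnb1-high cells over DMSO Ccnb1-0 the count of higher genes, 0, was 2 with *Ins1* of at least 10000 RPM, 1 with *Ccnb1* of at least 100 RPM, 1 after thinning and 3 with cells holding a further hormone left out. The median was -1.45 and the count of lower genes 5 on the scale of mean log2(RPM + 1), where the median of all genes was -0.42. With each cell left out the median ran from -0.88 to -0.45, the higher count from 0 to 1 and the lower count from 2 to 4. Without the filter, over 24113 genes, the share of all genes higher and lower was 9.85% and 13.6% within GNF4877, 5.44% and 12.4% between treatments and 8.69% and 18.9% for Ccnb1-high cells over DMSO. The filter removes sparse genes, which seldom pass 2-fold with the pseudocount. For the other changes the cause was not tested.

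No paired analysis was possible because the cells of both samples share only the numbers in their titles. The 11 Ccnb1-high cells limit every value that rests on them: leaving out a single cell moved the ratio of 6 of the genes by over 1.5 times within GNF4877. *Sesn1* and *Tp53inp1*, and *Ppm1d* in the GNF4877 groups, rest on few cells with a read. The lane differed between the treatments and cannot be told apart from the compound. Hormone content and the number of genes per cell differed as well. Beyond leaving out cells with a further hormone and thinning to equal depth, their part was not tested. RNA levels say nothing of p53 protein or its phosphorylation, which were not measured in these files.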

Other observations

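Cells under 1000 RPM of *Ins1* stood outside the comparisons: 8 after DMSO and 25 after GNF4877, of which 6 and 22 held a further hormone. *Mdm2* had a mean of 256 RPM after GNF4877 and 114 RPM after DMSO, with a read in 15 of 25 and 5 of 8 cells. GNF4877 cell 77, at 2019 RPM, held 31.6% of the GNF4877 sum, and cell 84 came next at 1269 RPM. DMSO cell 89, at 628 RPM, held 69.1% of the DMSO sum. Among these cells, those with at least 1000 RPM of *Gcg* had *Mdm2* means of 343 RPM over 18 GNF4877 cells and 137 RPM over 5 DMSO cells. Cell 89 alone held 91.7% of that DMSO sum. *Ccng1*, by contrast with the Ins1-high cells, had the higher mean after GNF4877, 187 RPM against 96.1 RPM. *Gadd45a* had means of 12.4 and 3.38 RPM in GNF4877 and DMSO, the former mostly from cell 94 at 218 RPM.

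*Sesn1* had a read in 4 of the 8 DMSO cells, with a mean of 67.1 RPM and 402 RPM in cell 89, and in 8 of the 25 GNF4877 cells, with a mean of 8.2 RPM. *Sesn2* had a read in 8 of 8 and 19 of 25, with means of 60.5 and 51.8 RPM. *Tp53inp1* had a read in 0 of 8 DMSO cells, which allows a share of up to 36.9%, and in 4 of 25 GNF4877 cells, with 607 RPM in cell 71. *Tp53bp1* had means of 62.3 RPM in DMSO and 25.1 RPM in GNF4877, *Mdm4* of 19.7 and 37.4 RPM, and *Ppm1d* of 57.4 and 15.7 RPM. With 8 DMSO cells, these are values without a comparison.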
